A study of Mus musculus with 6 samples.

Results

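Chemokines are small secreted proteins that direct the movement of leukocytes, and their receptors are found mainly on leukocytes. The genes described here are those whose name in the deposited gene tables starts with Ccl, Cxcl, Xcl, Ccr, Cxcr or Xcr and a digit, or is Cx3cl1 or Cx3cr1. They are 59 genes in 69 gene models, out of 23699 gene models in all, because several ligand genes are listed at more than 1 place in the genome. Of these, 39 genes (49 models) are ligands and 20 genes (20 models) are receptors. No level was required for a gene to be included.

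RNA of the whole duodenum of 6-week-old mice of mixed background was sequenced in 3 mutant and 3 control libraries. Mutants 1 and 2 were Nkx2.2flox/flox; Villin-Cre/+, and mutant 3 carried Rosa26Tomato/+ besides. Controls were Nkx2.2flox/+, with 1 floxed allele and no Cre. The Villin promoter drives Cre in the intestinal epithelium, so the gene is targeted there and not in the leukocytes, fibroblasts or vessels of the same tissue. Nkx2-2, the targeted transcription factor of endocrine cells (mm9 chr2:147003282-147012138), had 1.10, 0.736 and 0.221 FPKM in mutants 1 to 3, against 1.13, 1.32 and 0.779 FPKM in controls 1 to 3. FPKM is the number of fragments of a transcript divided by its length and by the library's depth. The Nkx2-2 groups overlapped, and its log2 change of -0.47 ± 0.30 (SE) had an adjusted p of 0.999 in limma. The deleted stretch of the gene is not given in the sources used here, so these whole-gene values do not check the labels. The depth was 20.7 to 26.0 M fragments per library.

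In the small intestine, Ccl25 from epithelial cells attracts T cells and antibody-producing cells that carry its receptor Ccr9. Other ligands of epithelial cells act on other leukocytes: Ccl20 on cells with Ccr6, Cx3cl1 on phagocytes with Cx3cr1, and Cxcl16 on lymphocytes with Cxcr6. Cxcl9, Cxcl10 and Cxcl11 are induced by interferons and bind Cxcr3, while Cxcl12, Cxcl13 and Ccl21 position cells in stroma and lymphoid tissue.

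The test covered 41 of the 69 models (39 genes), those that reached 0.5 FPKM in 3 or more libraries. They comprised 29 ligand models and 12 receptors. At an adjusted p under 0.05 in limma, 0 of the 41 were called, beside 0.0221% of all 13596 tested models. At an unadjusted p under 0.05 the count was also 0 of 41, beside 3.43% of all. In 0 of the 41 did the mutants lie wholly above or below the controls, beside 7.75% of all. With the replicate number as a block, 0 of the 41 were called (0.162% of all) and 2, Ccl22 and Xcl1, had an unadjusted p under 0.05 (6.76% of all). No label states that each sample is a separate animal, so the p-values reflect the spread between samples only. All changes below are mutant minus control on the scale of log2(FPKM + 0.5), which understates the change of low genes, and ± after a log2 change is its standard error. The adjusted p was 0.999 for every tested ligand and receptor.

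Ccl25 (chr8:4325210-4360020, plus strand) has a pair of annotated transcripts whose starts lie 24.4 kb apart. The deposited isoform values placed 99.7 to 99.9% of its FPKM on the downstream start in every library. The upstream transcript had 0.480, 1.52 and 0.497 FPKM in mutants and 1.11, 1.42 and 1.22 FPKM in controls. The downstream transcript had 433, 568 and 457 FPKM in mutants and 503, 435 and 477 FPKM in controls. The 300 bases around each start, 250 before and 50 after it, are shown because the expressed and the near-silent start of the same gene differ in base composition. They are RefSeq promoter windows of GRCm38.p6, placed on the mm9 genome by an exact match, and capitals mark the motif TATAAA.
Ccl25 downstream start, chr8:4349338-4349637, plus strand: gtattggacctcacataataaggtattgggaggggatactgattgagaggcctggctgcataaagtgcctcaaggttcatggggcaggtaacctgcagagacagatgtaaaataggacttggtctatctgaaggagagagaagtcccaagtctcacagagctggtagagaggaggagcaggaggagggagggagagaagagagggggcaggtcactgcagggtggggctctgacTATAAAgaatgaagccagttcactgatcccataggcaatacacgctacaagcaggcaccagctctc
Ccl25 upstream start, chr8:4324960-4325259, plus strand: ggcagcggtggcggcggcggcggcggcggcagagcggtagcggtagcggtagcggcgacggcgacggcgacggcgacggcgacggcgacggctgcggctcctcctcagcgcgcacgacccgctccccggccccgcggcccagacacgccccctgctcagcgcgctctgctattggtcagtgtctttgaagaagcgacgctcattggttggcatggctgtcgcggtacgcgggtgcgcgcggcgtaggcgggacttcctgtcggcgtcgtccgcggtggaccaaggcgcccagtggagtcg
The downstream window had 51.7% G or C and 1 CpG, with TATAAA starting 16 bases before the transcript start. The upstream window had 74.0% G or C, 52 CpG and no TATAAA. Searched on both strands, TATAAA was in 13.6% of all 32851 RefSeq promoter windows and in 13 of 50 windows (26.0%) of the 43 chemokine and receptor genes matched. The motif TNAAGTG, a core that NKX2-2 is known to bind, occurred 1 time in the downstream window and was absent from the upstream one. It was in 7 of the 50 windows (14.0%) and in 11.5% of all. A match in a window is not evidence of binding.

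Cxcl10 (chr5:92775665-92777915, minus strand) had the smallest p of all 41 tested models, and its window is shown with 2 motifs in capitals: the core of interferon-response elements, spelled GAAA, any 2 bases, GAAA, and the NF-kappaB consensus.
Cxcl10, chr5:92777866-92778165, minus strand: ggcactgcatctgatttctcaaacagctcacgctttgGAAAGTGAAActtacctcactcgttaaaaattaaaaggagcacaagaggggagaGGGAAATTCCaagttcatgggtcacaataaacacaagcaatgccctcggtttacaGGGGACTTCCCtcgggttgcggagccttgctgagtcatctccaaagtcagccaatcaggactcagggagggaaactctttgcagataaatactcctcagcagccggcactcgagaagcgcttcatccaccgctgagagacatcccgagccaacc
The interferon-response core starts 213 bases before the transcript start. The NF-kappaB consensus was matched at 159, 104 and 103 bases before the start, and the last pair of matches overlap. On both strands, the interferon-response core was in 3 of the 50 windows (6.00%) and in 3.44% of all windows. The NF-kappaB consensus was in 11 of the 50 (22.0%) and in 8.46% of all.

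Ccl25 was the most abundant chemokine transcript in every library. It had 434, 569.9 and 458 FPKM in mutants 1 to 3, against 504, 437 and 479 FPKM in controls 1 to 3. The groups overlapped, with mutant 2 highest and mutant 1 lowest of all 6. Its means were 487 ± 72.7 FPKM in mutants and 473 ± 33.8 FPKM in controls (SD, n = 3 each). The log2 change was 0.03 ± 0.15, with a 95% interval of the fold from 0.798 to 1.31. Ccl25 made up 44.1, 54.8 and 45.7% of the summed ligand FPKM in mutants and 50.7, 48.2 and 47.2% in controls. The summed ligand FPKM itself was 983, 1041 and 1001 in mutants and 993, 906 and 1014 in controls. Among all 23699 models Ccl25 ranked between 176 and 236 in mutants and between 196 and 218 in controls.

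Its receptor Ccr9, which brings lymphocytes to the small intestine, had 2.40, 1.93 and 3.51 FPKM in mutants and 2.18, 2.74 and 3.63 FPKM in controls. The highest value of each group was in the library numbered 3. The log2 change of Ccr9 was -0.12 ± 0.24, with a fold interval from 0.631 to 1.35. The FPKM of Ccl25 was 181, 296 and 131 times that of Ccr9 in mutants and 231, 160 and 132 times in controls, on a scale that is per length for both genes. In tissue RNA, fewer cells of a type and less RNA per cell cannot be told apart, which holds for every receptor described here.

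**Figure D1:**
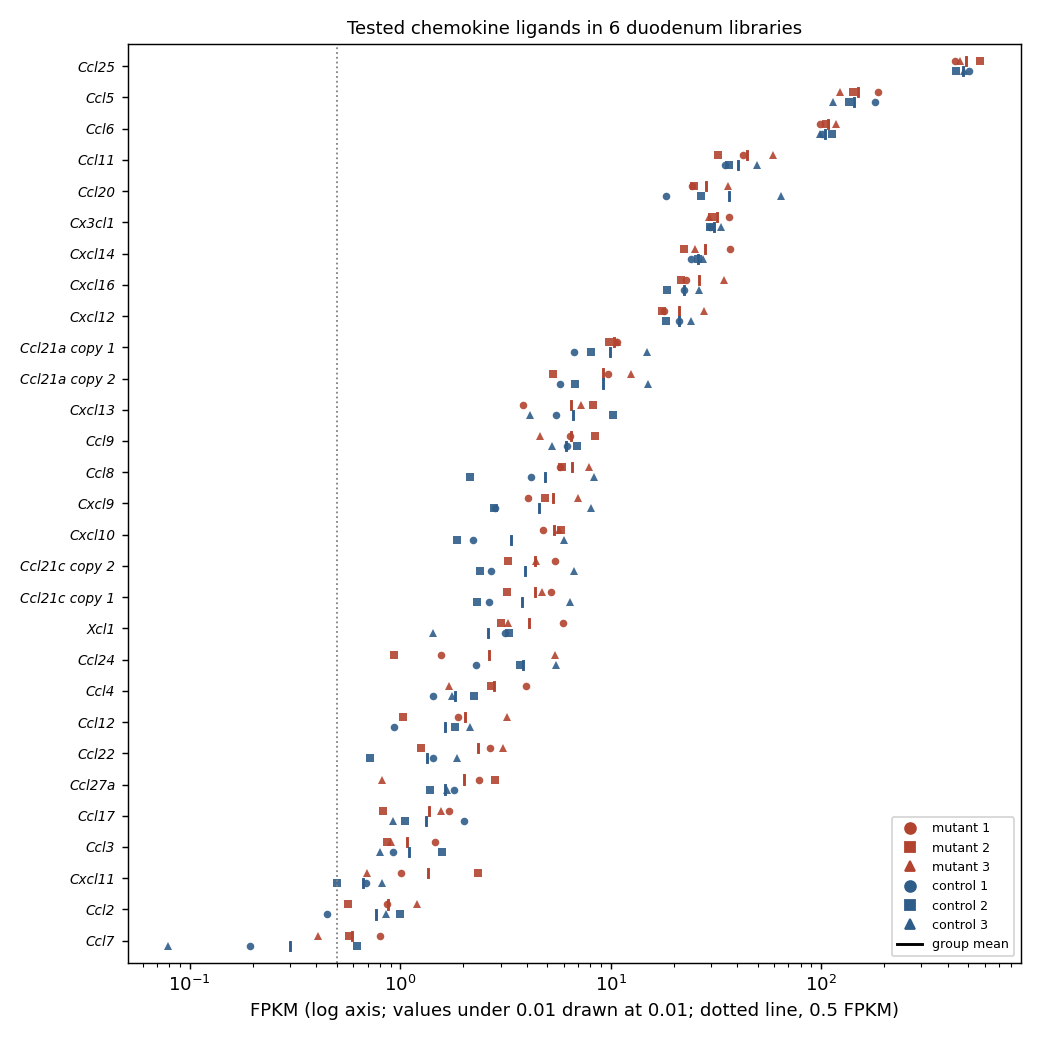
FPKM of the 29 tested ligand models in the 6 libraries, on a log axis, with mutants drawn above controls and a vertical tick at each group mean. Ccl25 lies furthest right in every library, and no ligand has all mutants on 1 side of all controls.

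None of the other tested ligands of mucosal surfaces passed the test. Ccl20, an attractant of cells with Ccr6, had 24.3, 24.8 and 36.3 FPKM in mutants and 18.3, 26.9 and 64.8 FPKM in controls. Control 3 was the highest of all 6 libraries and control 1 the lowest. The log2 change of Ccl20 was -0.18 ± 0.48, and its interval from -1.37 to 1.01 is among the widest of the tested models. Ccl20 is known from the epithelium over lymphoid follicles. The 8 follicle markers matched summed to 107, 74.9 and 35.0 FPKM in mutants and 108, 141 and 87.7 FPKM in controls. Gp2, a marker of follicle-associated M cells that the exocrine pancreas also makes, supplied most of that sum except in mutant 3, where it had 15.2 FPKM. Without Gp2 the sums were 29.7, 28.6 and 19.8 FPKM in mutants and 17.5, 20.9 and 20.1 FPKM in controls. Mutants 1 and 2 then stood above all controls, and mutant 3 lay among them. Spib, in that remainder, had the same pattern, with 11.8, 13.7 and 3.15 FPKM in mutants and 1.92, 2.90 and 2.21 FPKM in controls. Summed tuft cell markers, given below, were also highest in mutants 1 and 2, and their part in the Spib values was not tested. Tnfrsf11a, of the follicle list, was lower in every mutant than in any control. Of the 6 tested follicle markers, 3 lay higher in mutants by mean log2 level, beside 44.2% of all tested models. The defining marker Cr2 was under 0.1 FPKM in every library, and the part of follicles in the Ccl20 values was not tested. Ccr6 was under the level needed for a test, at 0.174, 0.167 and 0.340 FPKM in mutants and 0.338, 0.408 and 0.507 FPKM in controls. The groups of Ccr6 met between mutant 3 and control 1.

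Cx3cl1, a membrane-bound chemokine, had 36.6, 30.5 and 29.5 FPKM in mutants and 29.7, 29.7 and 33.6 FPKM in controls. The groups overlapped, and the log2 change of 0.05 ± 0.12 had a fold interval from 0.854 to 1.25. Its receptor Cx3cr1, a marker of resident phagocytes, had 4.61, 3.73 and 3.59 FPKM in mutants and 4.73, 4.13 and 4.57 FPKM in controls. Cx3cr1 had a log2 change of -0.16 ± 0.13, and mutants 2 and 3 lay below all controls. Cxcl16, which also serves as a scavenger receptor, had 22.8, 21.7 and 34.7 FPKM in mutants and 22.4, 18.6 and 26.3 FPKM in controls. Its receptor Cxcr6 had 4.19, 3.54 and 5.62 FPKM in mutants and 3.40, 2.59 and 6.32 FPKM in controls. Both were highest in the library numbered 3 of each group, and their log2 changes were 0.21 ± 0.21 and 0.17 ± 0.31. Cxcl14, a constitutive epithelial chemokine, had 37.0, 22.4 and 25.3 FPKM in mutants and 24.2, 26.1 and 27.5 FPKM in controls. Mutant 1 alone stood above the other 5 libraries for Cxcl14.

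Ccl5 and Ccl6 followed Ccl25 in level. Ccl5, made largely by cytotoxic lymphocytes and a ligand of Ccr1 and Ccr3, had 187, 142 and 123 FPKM in mutants and 180.3, 136 and 115 FPKM in controls. The library numbered 1 was highest and that numbered 3 lowest in both groups. The summed FPKM of 13 T cell and intraepithelial lymphocyte markers was 338, 264 and 250.5 in mutants and 317, 241 and 226 in controls, most of it from the granzymes Gzma and Gzmb. Of the 13, 4 were lowest in both libraries numbered 3, as Ccl5 was, and 4 (Cd2, Cd5, Lck and Thy1) were highest in both. The part of T cells in the Ccl5 values was not tested. The log2 change of Ccl5 was 0.07 ± 0.22, with a fold interval from 0.741 to 1.49.

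Ccl6, a rodent chemokine that acts on Ccr1, had 99.0, 106 and 117 FPKM in mutants and 101, 113 and 98.9 FPKM in controls. Ccl6 had a log2 change of 0.04 ± 0.12 and a fold interval, from 0.853 to 1.24, that was among the narrowest. Ccl9, a neighbour of Ccl6 that also acts on Ccr1, had 6.45, 8.45 and 4.61 FPKM in mutants and 6.21, 6.95 and 5.27 FPKM in controls. Ccr1 itself, found on monocytes and neutrophils, had 4.43, 2.79 and 4.50 FPKM in mutants and 3.04, 3.10 and 3.63 FPKM in controls. Mutants 1 and 3 were above all controls for Ccr1 and mutant 2 was below them, for a log2 change of 0.21 ± 0.19.

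Ccl11, the eotaxin that attracts eosinophils through Ccr3, had 42.5, 32.3 and 59.3 FPKM in mutants and 35.1, 36.4 and 49.7 FPKM in controls. The library numbered 3 was the highest of each group. The 7 fibroblast markers summed to 206, 178 and 298 FPKM in mutants and 225, 221 and 337 FPKM in controls, also highest in the library numbered 3. The log2 change of Ccl11 was 0.12 ± 0.24. Ccl24, a second eotaxin, had 1.57, 0.934 and 5.44 FPKM in mutants and 2.30, 3.70 and 5.53 FPKM in controls. Its log2 change of -0.67 ± 0.58 was the most negative of the 41, with mutant 3 close to control 3. Without mutant 3 the log2 change of Ccl24 was -1.26 ± 0.35 (unadjusted limma p 0.0101, adjusted p 0.333), and without both libraries numbered 3 it was -0.99 ± 0.26 (unadjusted limma p 0.00541, adjusted p 0.172). Ccr3 had 2.24, 1.33 and 0.561 FPKM in mutants and 1.01, 1.36 and 1.02 FPKM in controls, with the highest and the lowest value both in mutants. Eosinophil markers summed to 20.6, 21.4 and 6.56 FPKM in mutants and 4.75, 5.88 and 4.37 FPKM in controls. Siglec5 supplied most of the sum in mutants 1 and 2. It had 13.9, 15.6 and 1.37 FPKM in mutants and 1.93, 2.95 and 0.938 FPKM in controls. Summed tuft cell markers, given below, were likewise highest in mutants 1 and 2, and their part in the Siglec5 values was not tested. Without Siglec5 the sums were 6.75, 5.85 and 5.20 FPKM in mutants and 2.82, 2.92 and 3.43 FPKM in controls. Of the list, Ear2 alone had an unadjusted limma p under 0.05, at 0.00423 (adjusted p 0.999). The log2 change of Ear2 was 1.31 ± 0.32, and its groups did not overlap. The defining marker Epx was under 0.1 FPKM in every library. The part of eosinophils in the Ccr3 and eotaxin values was not tested.

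Ccl8, a ligand of Ccr8 in the mouse, had 5.78, 5.86 and 7.94 FPKM in mutants and 4.18, 2.14 and 8.37 FPKM in controls. Control 3 exceeded every mutant, and the log2 change of Ccl8 was 0.54 ± 0.43. It was 0.99 ± 0.27 without control 3 (adjusted limma p 0.848), 0.40 without mutant 3 and 0.11 without control 2. Ccr8 was at 0.0505 FPKM or less in all libraries. Ccl22, a ligand of Ccr4 made by dendritic cells, had 2.67, 1.26 and 3.07 FPKM in mutants and 1.43, 0.717 and 1.86 FPKM in controls. Each mutant was above the control of the same number for Ccl22, although the groups overlapped. Its log2 change was 0.61 ± 0.34 in limma with an unadjusted p of 0.114, and with the replicate block the unadjusted p was 0.00432 and the adjusted p 0.402. Ccl17, the other Ccr4 ligand, averaged 1.37 FPKM in mutants and 1.33 FPKM in controls, and Ccr4 averaged 0.255 FPKM in mutants and 0.319 FPKM in controls.

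The ligands of Ccr2 were low, and so were Ccl3 and Ccl4. Ccl2, Ccl7 and Ccl12, which attract monocytes through Ccr2, averaged 0.878, 0.591 and 2.04 FPKM in mutants and 0.770, 0.299 and 1.64 FPKM in controls. Ccl7 rested on 10, 8 and 5 fragments in mutants and 3, 8 and 1 in controls, so its log2 change of 0.49 ± 0.27 carries a large counting error. Ccr2 had 1.07, 0.571 and 2.36 FPKM in mutants and 1.08, 1.06 and 1.97 FPKM in controls. Ccl3 and Ccl4, made by activated lymphocytes and macrophages, averaged 1.08 and 2.79 FPKM in mutants and 1.10 and 1.82 FPKM in controls. Of the 13 tested models among these inflammatory and myeloid CC ligands, Ccl5, Ccl6 and Ccl11 included, 11 lay higher in mutants by mean log2 level, beside 44.2% of all tested models. Their log2 changes ran from -0.67 to 0.61 with a median of 0.12, and 0 passed the test.

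Xcl1, which natural killer and T cells make for dendritic cells with Xcr1, had 5.96, 3.02 and 3.27 FPKM in mutants and 3.13, 3.30 and 1.44 FPKM in controls. Mutant 1 was the highest library and control 3 the lowest. The log2 change was 0.56 ± 0.34, with an unadjusted limma p of 0.141 and of 0.0389 with the replicate block (adjusted p 0.699). Xcr1 had 0.565, 0.356 and 0.619 FPKM in mutants and 0.512, 0.703 and 0.736 FPKM in controls, with a log2 change of -0.19 ± 0.17.

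The interferon-inducible ligands of Cxcr3 lie together in 42.0 kb of chromosome 5. Cxcl10 had 4.75, 5.80 and 5.69 FPKM in mutants 1 to 3, against 2.23, 1.86 and 6.03 FPKM in controls 1 to 3. All mutants were above controls 1 and 2, and control 3 was above all mutants. These values rest on 90, 123 and 106 fragments in mutants and 52, 36 and 115 in controls. The log2 change of 0.76 ± 0.38 was the largest of the 41, with an unadjusted limma p of 0.0877 and an interval from -0.15 to 1.68. Without control 3 it was 1.22 ± 0.16 with an unadjusted limma p of 0.000145 and an adjusted p of 0.147. Without both libraries numbered 3 it was 1.18 ± 0.18 with an adjusted limma p of 0.0134, in a fit that called 1.47% of all tested models. The call of Cxcl10 thus turns on whether those libraries are used.

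Cxcl9 had 4.05, 4.88 and 7.03 FPKM in mutants and 2.81, 2.79 and 8.10 FPKM in controls, again with control 3 highest, and its log2 change was 0.32 ± 0.42, or 0.78 ± 0.23 without control 3 (adjusted limma p 0.848). Cxcl11 had 1.01, 2.35 and 0.696 FPKM in mutants and 0.684, 0.503 and 0.816 FPKM in controls, and a log2 change of 0.57 ± 0.32. Mutant 2 alone was well above the rest. Cxcr3, the receptor of all 3 on activated T cells, had 1.82, 1.11 and 1.78 FPKM in mutants and 1.36, 1.44 and 2.30 FPKM in controls, a log2 change of -0.09 ± 0.22. The level of 17 interferon-response genes summed to 312, 632 and 384 FPKM in mutants and 245, 157 and 459 FPKM in controls. As with Cxcl10, control 3 was the highest control and control 2 the lowest in that sum. Of the 17 genes, 0 passed the adjusted threshold, and 6 had a higher level in mutants at an unadjusted p under 0.05 in limma, beside 1.8% of all tested models. Their median log2 change was 0.55, beside -0.02 over all tested models. Oas2, an antiviral sensor of RNA, had 2.66, 6.50 and 2.55 FPKM in mutants and 0.719, 0.427 and 1.10 FPKM in controls. Its log2 change was 1.74 ± 0.36, and the groups did not overlap. The part of the interferon-response level in the Cxcl10 values was not tested.

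Among stromal and lymphoid ligands, Cxcl12, which retains leukocytes through Cxcr4 and is scavenged by Cxcr7, had 17.9, 17.6 and 27.7 FPKM in mutants and 21.2, 18.3 and 24.2 FPKM in controls. Its log2 change was -0.03 ± 0.19. The 1878-base transcript of Cxcl12 held 77.5, 80.6 and 87.4% of the gene's FPKM in mutants and 82.4, 82.2 and 79.9% in controls. Cxcr4 had 2.20, 1.81 and 3.57 FPKM in mutants and 1.76, 1.72 and 2.85 FPKM in controls. Cxcr7 had 5.04, 3.86 and 5.20 FPKM in mutants and 3.79, 4.32 and 5.14 FPKM in controls. All 3 genes were highest in the library numbered 3 of each group. Cxcl13, the B cell attractant of follicles, had 3.85, 8.25 and 7.27 FPKM in mutants and 5.48, 10.3 and 4.16 FPKM in controls, with no order by group. Its receptor Cxcr5 was at 0.198 FPKM or less in all libraries.

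Ccl21, which draws T cells and dendritic cells with Ccr7 into lymphatics and lymph nodes, is present in mm9 as near-identical copies on chromosome 4. The Ccl21a copies (chr4:42231045-42232176 and chr4:42786392-42787523) are identical over 1132 bases, and so are the Ccl21c copies (chr4:42391950-42393080 and chr4:42625655-42626785) over 1131 bases. Ccl21a and Ccl21c differ at 6 of 1131 aligned bases (99.5% identity), and 2 of the 6 lie in coding sequence of Ccl21a. Stretches of 25 bases around those 2 differences are shown because fragments without a differing base or the difference in length cannot tell the genes apart. The differing base is in capitals.
Ccl21a, chr4:42787267-42787291, minus strand: tgatggagggggTcaggactgctgc
Ccl21c, chr4:42392825-42392849, minus strand: tgatggagggggAcaggactgctgc
Ccl21a, chr4:42787063-42787087, minus strand: ccctcaggttctCaccccggaagca
Ccl21c, chr4:42392621-42392645, minus strand: ccctcaggttctTaccccggaagca
The Ccl21a copies had 10.7, 9.88 and 10.7 FPKM and 9.78, 5.33 and 12.6 FPKM in mutants, against 6.71, 8.05 and 14.9 FPKM and 5.74, 6.77 and 15.1 FPKM in controls. The Ccl21c copies averaged 4.39 and 4.38 FPKM in mutants and 3.80 and 3.93 FPKM in controls. Control 3 was the highest library for all 4 models. The split of fragments between the copies is uncertain, and the Ccl21a rows carry a low-data status in every library. The authors' deposited table lists a mean count of 0 for Ccl21a, Ccl21b and Ccl21c in both groups. Ccl21b is identical to Ccl21c over its 1095 bases, and 4 of its models had FPKM under 0.01 in all mutants and between 0.000201 and 0.823 in controls; they were too low for the test. The Ccl19 copies (1994 bases) and the Ccl27b copies (5402 bases) are also identical to each other. Ccr7 had 0.293, 0.476 and 0.595 FPKM in mutants and 0.345, 0.260 and 0.291 FPKM in controls, too low for the test.

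**Figure D2:**
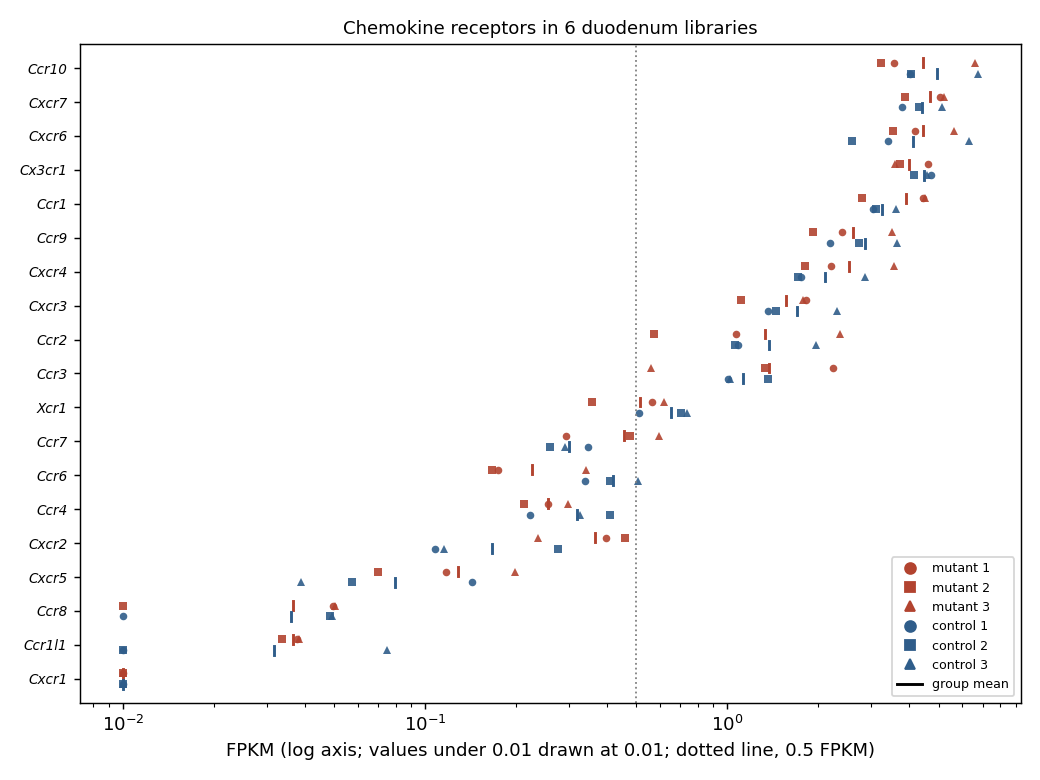
FPKM of 19 of the 20 receptor genes in the 6 libraries, on a log axis, with mutants drawn above controls and a vertical tick at each group mean. The 11 tested receptors drawn lie near or right of the dotted line at 0.5 FPKM, and the library numbered 3 is the highest of both groups in 8 of them.

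Receptors were far lower than ligands on this per-length scale, with sums of 35.2, 27.0 and 41.1 FPKM in mutants and 29.3, 30.2 and 42.2 FPKM in controls. The highest by mean was Ccr10, found on IgA plasma cells. It had 3.57, 3.21 and 6.58 FPKM in mutants and 4.02, 4.06 and 6.74 FPKM in controls. The summed B and plasma cell markers were 794, 724 and 1468 FPKM in mutants and 827, 931 and 1609 FPKM in controls, in the same order of libraries within each group. Igj supplied most of that sum, and without it the sums were 27.1, 24.0 and 45.8 FPKM in mutants and 27.2, 31.9 and 47.9 FPKM in controls, again in that order. Ccr10 had a log2 change of -0.16 ± 0.30. Its ligand Ccl27a averaged 2.01 FPKM in mutants and 1.63 FPKM in controls. Ccl28, the mucosal ligand of Ccr10, was listed at 0 in all libraries at its single model, on the unplaced sequence chr13_random. Ccr10, Cxcr7, Cxcr6 and Cx3cr1 had mean levels that neighbour each other within their spread.

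The genes that attract neutrophils were near the limit of detection. Cxcl1, Cxcl2, Cxcl3 and Cxcl5, ligands of Cxcr2, summed to 0.332, 0.278 and 1.41 FPKM in mutants and 0.394, 0.773 and 1.07 FPKM in controls. Cxcr2 had 0.398, 0.459 and 0.236 FPKM in mutants, from 24, 31 and 14 fragments, and 0.108, 0.275 and 0.115 FPKM in controls, from 8, 17 and 7 fragments. The groups of Cxcr2 overlapped at mutant 3 and control 2. In the authors' deposited table Cxcr2 is the only one of the 59 genes with an unadjusted p under 0.05, at 0.0346 and an adjusted p of 1, where 2.16% of all genes have such a p. That table gives mean normalized counts of 23.4 in mutants and 10.3 in controls for Cxcr2. Of 6 neutrophil markers matched, Elane and Mpo were under 0.1 FPKM in every library, and the sum was 25.2, 20.2 and 7.22 FPKM in mutants and 11.6, 7.69 and 9.70 FPKM in controls. Retnlg, a secreted protein of the resistin family, supplied most of it, and the sum without Retnlg was 1.24, 1.30 and 2.06 FPKM in mutants and 0.958, 2.04 and 3.02 FPKM in controls. The part of neutrophils in the Cxcr2 values was not tested.

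The other untested genes were sparse. Ccl1 had 1, 2 and 1 fragments in mutants and, in controls, 1 in control 3 and a listed 0 in the others. Cxcl15 and Ccl27b averaged under 0.5 FPKM in both groups, Ccl19 and Ccr1l1 stayed under 0.5 FPKM in every library, and Cxcl17 was above 0 in control 1 only. Cxcr1, Ccl26 and Ccl28, with 3 further models, of Ccl21b and Ccl21c on unplaced sequence, were listed at 0 in all 6 libraries.

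**Figure D3:**
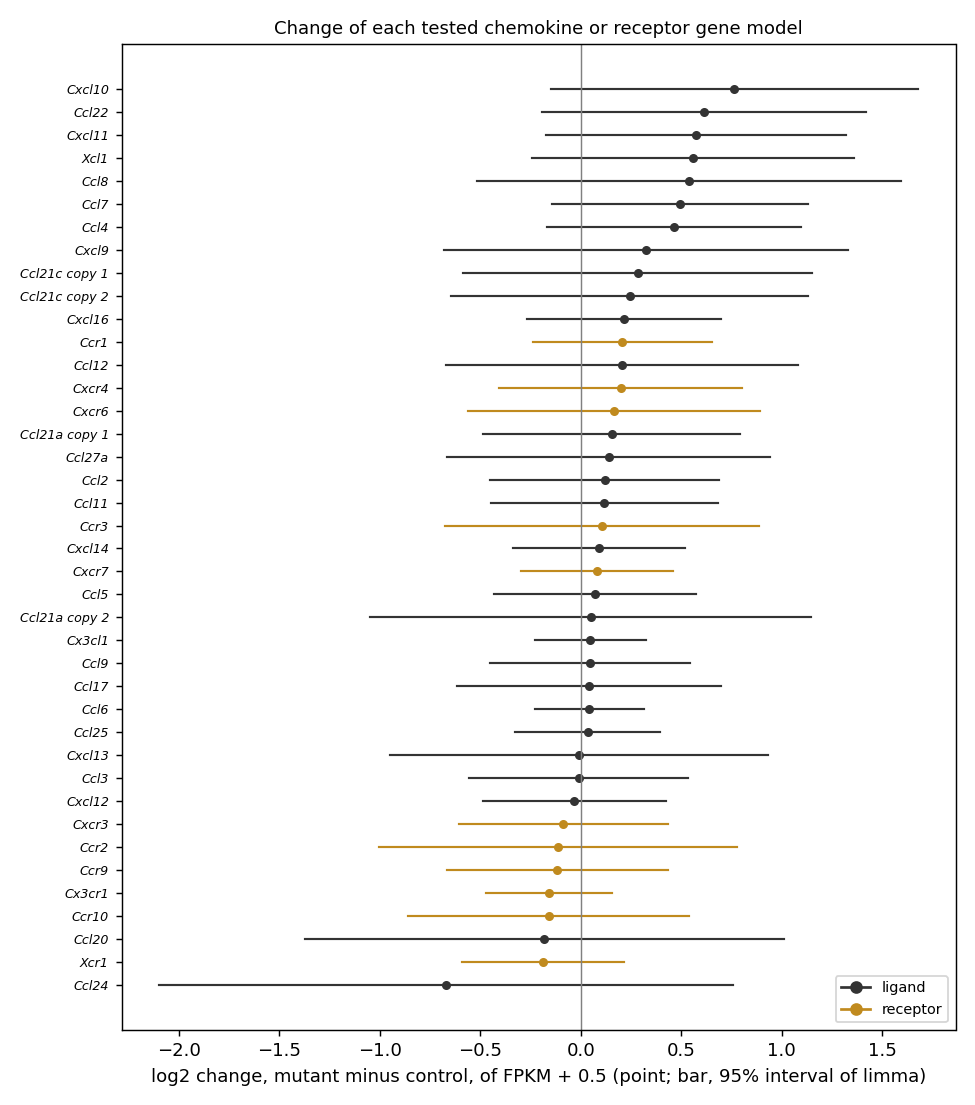
Log2 change, mutant minus control, of 40 of the 41 tested models with its 95% interval in limma, ordered from the highest to the lowest change, ligands dark and receptors ochre. Every interval drawn crosses 0, and 29 of the 40 points lie to the right of it.

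Taking the tested models as a whole, 29 of 41 (70.7%) lay higher in mutants by mean log2 level, beside 44.2% of all tested models. The share was 24 of 29 among ligands and 5 of 12 among receptors. Each of the near-identical Ccl21a and Ccl21c copies counts as a model here, and every tested copy lay higher in mutants. These copies are not independent of each other. The median log2 change was 0.09 over the 41, 0.12 over ligands and -0.05 over receptors, beside -0.02 over all tested models. Without mutant 3 the median over the 41 was 0.01, and without mutant 2 it was 0.21. The median SD among replicates was 0.40 on the log2 scale over the 41, beside 0.18 over all tested models. That comparison was not matched for level, and models of few fragments, such as Ccl7, carry a larger counting error. The 95% interval of the change stayed within 1.5-fold in both directions for 11 of the 41 and within 2-fold for 26. For the other 15 a change beyond 2-fold in at least 1 direction lay inside the interval. Of 37 tested genes with a fold change in the authors' deposited table, 33 had the same sign there. The adjusted p in the authors' deposited table was 1 for all 51 chemokine and receptor genes with a p, so 0 were called, beside 0.14% of all genes.

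**Figure D4:**
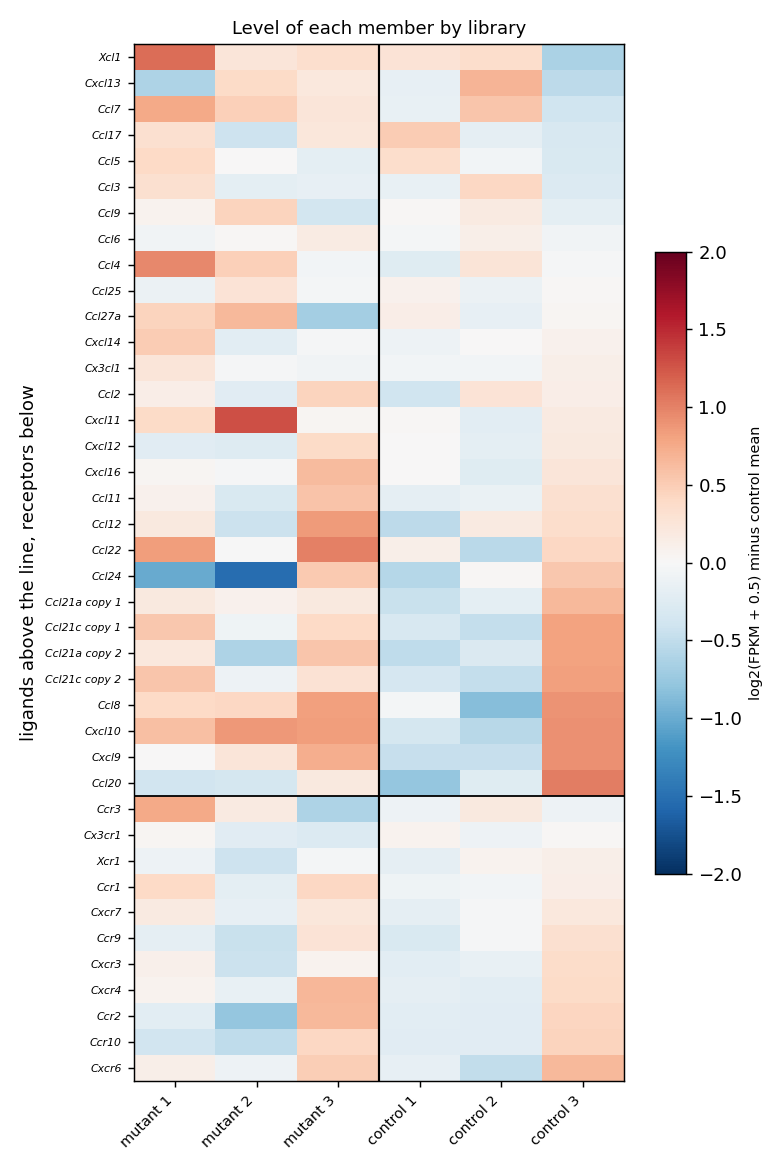
Colour shows log2(FPKM + 0.5) of 40 of the 41 tested models in each library, minus the mean of the controls, with mutants left of controls and ligands above receptors; rows are ordered by how far control 3 lies above controls 1 and 2. Control 3 is red in the lower ligand rows and in most receptor rows, and the receptor rows of mutant 3 are mostly red too.

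The libraries numbered 3 stood apart from the others of their group. Both were the highest of their group in 18 of the 41 models (43.9%), beside 31.4% of all tested models, and in 8 of the 12 receptors. Both were the lowest in 3 models, Ccl5, Ccl7 and Ccl9, beside 15.2% of all tested models. The median log2 difference of library 3 from the mean of libraries 1 and 2 was 0.23 in mutants and 0.30 in controls over the 41 models, and 0.13 in mutants and 0.03 in controls over all tested models. Epithelial markers summed to 18756, 24461 and 10462 FPKM in mutants and 20810.1, 19463 and 9350.2 FPKM in controls. That sum is carried by the enterocyte genes Fabp2 and Apoa4. Of the 8 epithelial markers, 5 were lowest in both libraries numbered 3, and 1, the transcription factor Cdx2, was highest in both. Smooth muscle markers summed to 521, 579 and 755 FPKM in mutants and 554, 473 and 956 FPKM in controls, and all 6 were highest in both libraries numbered 3. Exocrine pancreas markers, from tissue that lies beside the duodenum, summed to 13319, 8199 and 3001 FPKM in mutants and 21079, 20633 and 12974 FPKM in controls. The part of tissue composition in the levels of these libraries was not tested.

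Clustered genes did not share a level. The 6 genes of chr11:81849079-81993314 (Ccl2, Ccl7, Ccl11, Ccl12, Ccl8 and Ccl1, in 144 kb) had mean levels over all libraries from 0.127 to 42.5 FPKM. The 5 genes of chr11:83339281-83478185 (Ccl5, Ccl9, Ccl6, Ccl3 and Ccl4, in 139 kb) ranged from 1.09 to 147 FPKM. Of the CXC ligands in chr5:91188325-91334964 (147 kb), the 5 under the name rule (Cxcl5, Cxcl3, Cxcl15, Cxcl1 and Cxcl2) were at a mean of 0.339 FPKM or less. Pf4, a platelet CXC chemokine inside the same stretch but outside the name rule, averaged 5.25 FPKM in mutants and 6.54 FPKM in controls.

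Genes that act with chemokines gave the following counts, with 0 called at the adjusted threshold in each list. Over all tested models, 44.2% lay higher in mutants by mean log2 level, 1.8% were higher at an unadjusted limma p under 0.05 and 4.05% had all mutants above all controls. Of 18 tested genes of receptor signalling, 10 lay higher in mutants by mean log2 level, 2 with an unadjusted limma p under 0.05, and the median log2 change was 0.03. They were Vav1, a nucleotide exchange factor of leukocytes, and Pik3cg, a lipid kinase under G protein control. Vav1 had 6.42, 6.93 and 2.93 FPKM in mutants and 2.23, 2.34 and 2.20 FPKM in controls, a log2 change of 1.02 ± 0.29 without overlap. Pik3cg had 3.98, 4.16 and 2.47 FPKM in mutants and 1.98, 2.28 and 2.27 FPKM in controls, a log2 change of 0.57 ± 0.20. Summed tuft cell markers were likewise highest in mutants 1 and 2, at 89.8, 103 and 28.1 FPKM in mutants and 24.6, 28.6 and 23.1 FPKM in controls, and their part in the Vav1 and Pik3cg values was not tested. Of 10 genes that cleave or present chemokines, 6 lay higher in mutants by mean log2 level, with a median log2 change of 0.03. Among the 10, Dpp4, a protease that trims chemokine ends, had 78.5, 89.8 and 56.3 FPKM in mutants and 59.7, 49.2 and 42.2 FPKM in controls. Its log2 change was 0.56 ± 0.20 with an unadjusted limma p of 0.0265, and the groups overlapped. Of 15 cytokines that induce chemokines, 5 were tested, 2 of them higher at an unadjusted limma p under 0.05, and all 5 lay higher in mutants by mean log2 level, with a median log2 change of 0.48. Tslp, an epithelial cytokine, had 1.02, 1.27 and 0.573 FPKM in mutants and 0.257, 0.311 and 0.413 FPKM in controls. Every control was under 0.5 FPKM, so Tslp met the filter through the mutants alone, the group where it is high. Its log2 change of 0.79 ± 0.21 (unadjusted limma p 0.00692) and its share in the counts of this list are therefore not independent of the filter. Ltb, a lymphotoxin subunit, had 7.01, 5.98 and 5.61 FPKM in mutants and 2.76, 4.72 and 5.06 FPKM in controls, a log2 change of 0.55 ± 0.22. Of 12 NF-kappaB, STAT and interferon-regulatory factors, 6 lay higher in mutants by mean log2 level, with a median log2 change of 0.02. Irf7, also counted among the 17 interferon-response genes, and Irf9 had an unadjusted limma p under 0.05. Irf7 had 81.5, 173.5 and 84.5 FPKM in mutants and 64.4, 39.6 and 61.0 FPKM in controls, a log2 change of 0.97 ± 0.34. Chemoattractant and receptor genes outside the name rule (Pf4, Rarres2, Cmklr1, Darc, Ccrl1 and Ccrl2 tested) all had a lower mean log2 level in mutants, with a median of -0.21 and 0 at an unadjusted limma p under 0.05.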

How the data were processed

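Per the labels, RNA of the duodenum was sequenced in 3 mutant and 3 control samples, grouped here by their titles. Per the submitters' processing notes, the tools were CASAVA 1.8.2, Cufflinks, TopHat and DESeq and the build mm9; options and strand are not given in the sources used here. The authors deposited FPKM per gene and per isoform with Cufflinks bounds, and a coverage signal per isoform that was not used. The authors also deposited a table of both groups' mean normalized counts (a signal), with their fold ratio, log2 ratio and p-values, and without values of single libraries.

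The 13596 models that reached 0.5 FPKM in 3 or more libraries were put on the log2(FPKM + 0.5) scale and tested with limma 3.58.1 in R 4.3.3 (trend, robust prior, statmod 1.5.0), two-sided, with Benjamini-Hochberg adjustment over all of them and a threshold of 0.05; the fit was tested on simulated data. Fragments per gene and depth were recovered from the Cufflinks bounds, and 89.6 to 90.7% of low values lay within 0.1 of a whole fragment. Python 3.11.15, pandas 2.3.3, Biopython 1.88 and matplotlib 3.10.9 served for the rest. Starts in the files count from 0 and were raised by 1.

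The members and lists were chosen with earlier results of these data known. Named with every library's value, by rule, were Ccl25, Cxcl10, Ccl6, genes with a mean of at least 5 FPKM, tested genes at an unadjusted p under 0.05, and their ligands or receptors. Cxcl11, Xcl1, Xcr1, Ccl22, Ccl24 and Ccr2 were added after their values were seen. Deviations from the group means correlated at 0.26, 0.25 and 0.58 within same-numbered pairs. This is over 0.1 in every pair, so the fit with the number as a block counts as paired. Mutant 2 and control 1 correlated at 0.30, and mutant 1 and control 2 at 0.19. The numbers 1 and 2 are therefore not shown to mark pairs, which limits the block p-values. 1 receptor gene is counted but not reported here. Sums of a list without its gene of highest mean, and Pf4, Clec9a and Flt3, were added after the values were seen.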

Additional observations from a re-analysis of the deposited data

How the results depend on the processing

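Over 13596 models, 3 were called; 1 without a filter, 1 with upper quartile scaling, 19 with library quality weights, 22 with the replicate block, 0 without transcripts under 200 bases, 200 without both libraries numbered 3, and 2 to 68 when each library was left out in turn, with 68 without mutant 3 and 8 without mutant 1. The number of chemokine and receptor models called was 0 in every alternative run except 1, Cxcl10, without both libraries numbered 3. The number with an unadjusted p under 0.05 was 0, but 5 with library quality weights (Xcl1, Ccl7, Ccl4, Cxcl10 and Ccl22), 2 with the replicate block, 10 without both libraries numbered 3, and 0 to 6 when each library was left out, with 1 without control 2, 6 without control 3, 2 without mutant 2 and 4 without mutant 3. The cause was not tested. The replicate block changed no call at the adjusted threshold among these genes. Of 733 log2 changes under the alternatives, 728 moved by less than 1 SD between replicates. In 26 of the 41 models the sign changed in at least 1 alternative, and none of these had a change beyond 0.20 in size. Depth limits the genes of few fragments, such as Ccl7 and Cxcr2.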

Other observations

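Cell markers that accompany these chemokines gave further values, with 0 called at the adjusted threshold in each list. Of 4 tested mast cell markers, Mcpt1, Mcpt2 and Cpa3 had a higher level in mutants at an unadjusted limma p under 0.05, beside 1.8% of all tested models, and the list summed to 21.8, 42.7 and 22.5 FPKM in mutants and 9.02, 12.5 and 13.3 FPKM in controls. Mcpt1, a protease of mucosal mast cells, had 11.5, 24.8 and 13.2 FPKM in mutants and 3.82, 4.83 and 6.39 FPKM in controls, without overlap. Of 15 macrophage and dendritic cell markers, 6 lay higher in mutants by mean log2 level (44.2% of all tested models), with a median log2 change of -0.02. Batf3, a factor of dendritic cells with Xcr1, was the 1 higher at an unadjusted limma p under 0.05, with 3.56, 2.51 and 3.90 FPKM in mutants and 1.59, 2.29 and 2.32 FPKM in controls. Its groups did not overlap, as in 7.75% of all tested models, while Clec9a and Flt3, also of dendritic cells, had log2 changes of -0.02 each and Xcr1 had a lower mean in mutants.

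The deposited split of some genes between annotated transcripts differed between libraries of the same group. Few fragments can tell the transcripts below apart, so these splits are uncertain. Cxcl11 has a pair of transcripts of 1604 and 1585 bases. They share the position chr5:92788571 and differ at the other end, 92792322 against 92792303. The whole gene rested on 12.7 to 75.1 fragments per library. The longer held over 99% of the gene's FPKM in mutants 1 and 2 and control 1, and the shorter did so in mutant 3 and controls 2 and 3. For Ccr9, the 4392-base transcript held 32.2, 33.0 and 35.8% of the gene's FPKM in mutants and 12.0, 15.7 and 99.9% in controls. The other Ccr9 transcript, of 4324 bases, has the same start and end.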
